A study of Gallus gallus with 2 samples.

Results

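The neurotrophins and neuregulins are secreted or membrane-bound growth factors, and 9 genes of these systems were followed here: the ligands BDNF, NTF3 and NRG1 and the receptors NTRK2, NTRK3, NGFR, ERBB3, ERBB4 and RET. RNA came from the prosencephalon of chick embryos kept ex ovo in roller culture for 16 hours, to about stage HH13, with 40 µM DAPT or with its solvent DMSO. DAPT inhibits gamma-secretase, the protease that releases the active part of the Notch receptors. Each array received RNA from a pool of 5 prosencephalons of the same culture, and there were 4 arrays with DAPT and 4 arrays with DMSO. Arrays 1 and 2 of each condition lay on slide 1, and arrays 3 and 4 on slide 2. Isa Brown hens laid the eggs, and the sex of the embryos was not given in the sources used here.

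Members were found by the gene symbol that the deposited annotation gives each probe. This yielded 10 of the 43603 probes of the array, for 8 of the 9 genes, and 3 more probes were found by their RefSeq accession, of which 1 was for NTRK2 and 2 were for ERBB4. A probe entered the test where every array of either DAPT or DMSO had it marked by the image analysis as well above background. Of the 10 probes, 9 were tested, for 7 genes, and the probe for RET was not. The 3 probes found by accession were not tested either. Signals are given as log2 values relative to the median of all probes on the same array, so that 0 is the median. Levels are compared between conditions for the same probe and not between genes.

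Neurotrophins keep developing neurons alive and guide their growth, through the Trk family of receptor tyrosine kinases and the shared receptor p75. NRG1 acts on the ERBB receptor tyrosine kinases, which are known for their part in the development of neural crest, Schwann cells and parts of the central nervous system. RET is the signalling receptor for ligands of the GDNF family and works with GFRA co-receptors. NGFR, ERBB4 and NRG1 are, as proteins, known substrates of gamma-secretase, whereas the arrays measured RNA.

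On these arrays HES5, a direct target of Notch, averaged -3.48 ± 1.3 with DAPT and 2.35 ± 0.27 with DMSO (SD, n = 4 each), and NEUROG1, a proneural gene, averaged 1.42 ± 0.71 with DAPT and -1.73 ± 0.6 with DMSO. Adjusted p was 0.0035 for HES5 and 0.0181 for NEUROG1 (limma, Benjamini-Hochberg over 31504 probes). HES5 was well above background on 1 of 4 DAPT arrays and on 4 of 4 DMSO arrays. It entered the test only through DMSO, where it was higher, so its p does not count as a result. NEUROG1 was well above background on 4 of 4 arrays of each condition. Arrays had 67.8% to 80.8% of their probes well above background. The slides parted on the first principal component, which held 59.5% of the variance. Of the 10 markers of forebrain and optic vesicle, 9 could be tested, and of the 9 markers of midbrain and hindbrain 3 could be. EN1, EN2, EGR2 and the HOX genes of the second list were not among those 3.

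In DAPT-treated prosencephalons NRG1 averaged 1.77-fold higher and ERBB4, which encodes one of its receptors, 1.73-fold lower than with DMSO. No member passed the test in the main fit, which held no block for slide or array number. Of the 7 genes tested, 0 had an adjusted p under 0.05, against 0.145% of the 19335 genes tested over the whole array, and 2 had an unadjusted p under 0.05, against 2.56% of all genes. The fold change of 1.3 that the study used as its limit was reached upwards by NRG1 and BDNF, against 4.19% of all genes, and downwards by ERBB4, against 4.74%. NRG1 and BDNF also stand in the study's own list of genes past this limit, drawn from the same arrays. Their part in this count and in the median of the members was thus known in advance. For no member were the values of DAPT and DMSO free of overlap, as they were for 1.82% of all genes. The median log2 difference was 0.15 over the 7 genes and -0.011 over all genes.

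NRG1 stood at -0.068, 0.2, 0.32 and 0.68 on DAPT arrays 1 to 4, and at -0.85, -0.52, -0.94 and 0.15 on DMSO arrays 1 to 4. All 4 DAPT arrays were above DMSO arrays 1, 2 and 3, while DMSO array 4 lay within the range of the DAPT arrays. The mean was 0.28 ± 0.31 with DAPT and -0.54 ± 0.5 with DMSO (SD, n = 4 each). The log2 difference was 0.83, with an SE of 0.27 and a 95% interval of 0.22 to 1.43, and an adjusted p of 1 (limma, unadjusted p = 0.012). In a two-sided exact permutation test over the 70 splits of the 8 arrays p was 0.0571, and the smallest value that this design allows is 0.0286. Of all genes tested, 118 had a larger difference upwards.

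Within each slide both DAPT arrays were above both DMSO arrays for NRG1, by 0.75 on slide 1 and 0.9 on slide 2. Such a separation on both slides in the same direction was found for 3 of the 7 member genes (NRG1 and NGFR upwards, ERBB4 downwards), and for 6.4% of all genes (3.07% upwards and 3.33% downwards). With slide as a block the adjusted p of NRG1 was 0.317. With array number as a block it was 0.0488, the only setting in which a member passed the test (limma). The arrays of a number also share a slide, and with the slide mean removed same-numbered arrays correlated by only 0.0489 on slide 1 and 0.356 on slide 2, across probes. In that fit 195 probes passed (0.619%), and with slide as a block 142 (0.451%), against 45 (0.143%) without a block. The DAPT array exceeded the DMSO array of the same number by 0.78, 0.72, 1.26 and 0.53 for numbers 1 to 4.

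NRG1 lies on the Z chromosome in the RefSeq gene table, and in birds males carry a pair of Z chromosomes and females a single Z. The median of the 438 tested Z genes, relative to that of the 9236 autosomal genes, stood at -0.35, -0.1, -0.41 and -0.33 on DAPT arrays 1 to 4 and at -0.76, -0.31, -0.48 and -0.37 on DMSO arrays 1 to 4. It was higher on the DAPT array than on the DMSO array in each of the 4 numbered pairs. The median log2 difference was 0.15 over Z genes and -0.016 over autosomal genes, and the part of this in the NRG1 difference was not tested.

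**Figure D1:**
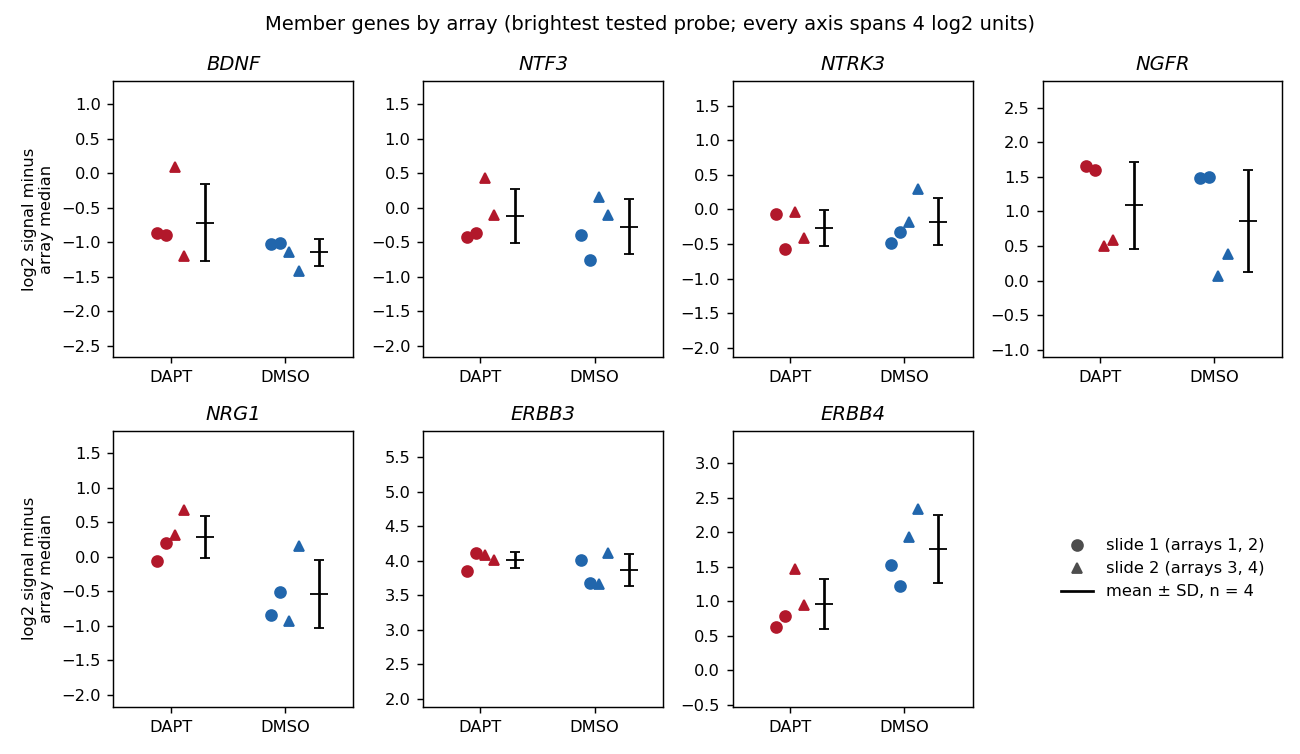
Log2 signal minus the array median (y axis) of the brightest tested probe of each of the 7 tested member genes, on the 4 DAPT arrays (red) and the 4 DMSO arrays (blue). Circles are arrays on slide 1, triangles arrays on slide 2, and black bars the mean ± SD. NRG1 is higher and ERBB4 lower with DAPT on each slide, with overlap over all arrays, and the slides part for NGFR.

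The brightest ERBB4 probe, and the only one found by symbol, stood at 0.63, 0.79, 1.47 and 0.95 on DAPT arrays 1 to 4, and at 1.53, 1.22, 1.93 and 2.34 on DMSO arrays 1 to 4. Only DAPT array 3 reached into the range of the DMSO arrays, where it lay above DMSO array 2 of the other slide. The mean was 0.96 ± 0.37 with DAPT and 1.76 ± 0.49 with DMSO (SD, n = 4 each). The log2 difference was -0.79, with an SE of 0.28, a 95% interval of -1.41 to -0.18 and an adjusted p of 1 (limma, unadjusted p = 0.0166). The exact permutation test gave p = 0.0571, two-sided. Of all genes tested, 143 had a larger difference downwards.

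Within slides the ERBB4 difference was -0.67 on slide 1 and -0.92 on slide 2, and on each slide both DAPT arrays were below both DMSO arrays. The adjusted p was 0.128 with slide as a block and 0.119 with array number as a block (limma). A second ERBB4 probe, found by accession, was well above background on 0 of 4 DAPT arrays and on 2 of 4 DMSO arrays, both on slide 2. It stood at -3.57, -3.78, -3.63 and -3.21 with DAPT and at -3.38, -3.39, -2.94 and -2.25 with DMSO. On both slides its DAPT values were below its DMSO values, but they were too dim for a fold change. The remaining ERBB4 probe was not well above background on any array.

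ERBB3, the receptor that binds neuregulin but has little kinase activity of its own, stood at 3.85, 4.11, 4.09 and 4.01 with DAPT and at 4.01, 3.68, 3.66 and 4.11 with DMSO. The conditions overlapped throughout. The log2 difference of 0.15 had a 95% interval of -0.25 to 0.55 and an adjusted p of 1 (limma). In this fit without a slide block it was the narrowest interval among the 9 tested probes. It covers a 1.3-fold change upwards but not a 1.3-fold change downwards. With slide as a block the SE was 0.16 for ERBB3, against 0.14 for NGFR, so the ranking holds only without that block.

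**Figure D2:**
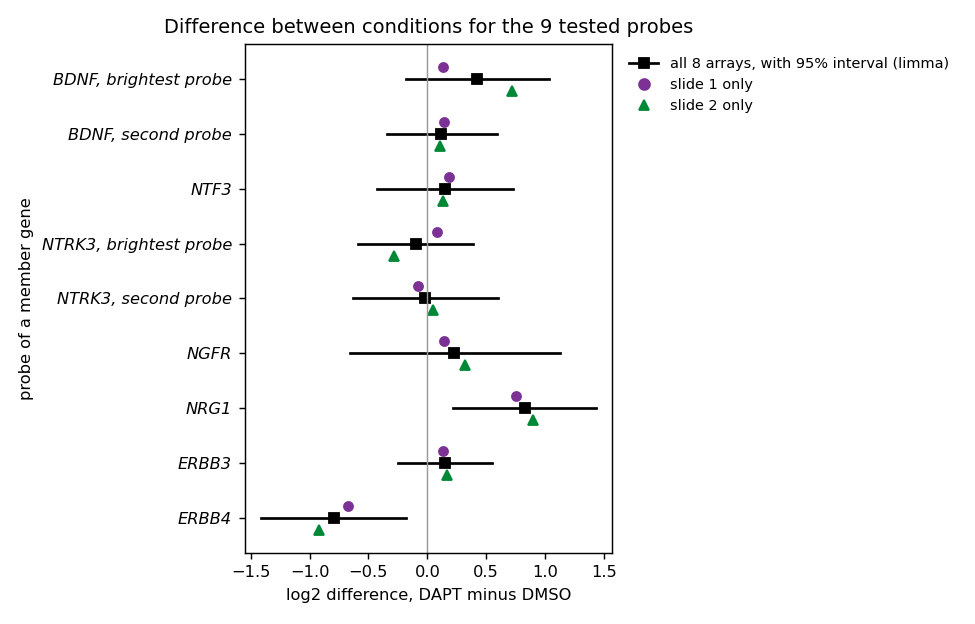
Log2 difference, DAPT minus DMSO (x axis), for each of the 9 tested probes. Black squares and lines give the difference over all 8 arrays with its 95% interval from limma, circles the difference within slide 1 and triangles that within slide 2. The intervals of NRG1 (0.22 to 1.43) and ERBB4 (-1.41 to -0.18) do not include 0, before adjustment over all probes.

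Among the neurotrophins, BDNF, which signals through NTRK2, was read by a pair of probes. The brighter probe stood at -0.87, -0.9, 0.088 and -1.2 on DAPT arrays 1 to 4, and at -1.02, -1.01, -1.14 and -1.42 on DMSO arrays 1 to 4. DAPT array 3 was above all other arrays, and DAPT array 4 was below 3 of the 4 DMSO arrays. The log2 difference was 0.42, with a 95% interval of -0.18 to 1.03 and an adjusted p of 1 (limma). It was 0.13 on slide 1 and 0.72 on slide 2, and without DAPT array 3 it was 0.15, under the 1.3-fold limit.

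The second BDNF probe stood at -1.04, -1.09, -0.43 and -1.16 with DAPT and at -1.27, -1.14, -0.79 and -1.01 with DMSO, again with DAPT array 3 highest. Its log2 difference was 0.12 (95% interval -0.34 to 0.59), and -0.04 without DAPT array 3.

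NTF3, the ligand of NTRK3, stood at -0.43, -0.37, 0.43 and -0.11 with DAPT and at -0.39, -0.76, 0.16 and -0.1 with DMSO. Arrays of the conditions overlapped on each slide. The log2 difference was 0.15, with a 95% interval of -0.43 to 0.73 and an adjusted p of 1 (limma). Its mean was higher by 0.58 on slide 2 than on slide 1, more than the difference between the conditions.

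Of the Trk receptors, NTRK3 was read by a pair of tested probes, and NTRK2 by a single dim probe. The brighter NTRK3 probe stood at -0.067, -0.57, -0.037 and -0.41 with DAPT and at -0.49, -0.32, -0.18 and 0.29 with DMSO. Its log2 difference was -0.097 (95% interval -0.59 to 0.39) and had opposite signs on the slides, at 0.086 on slide 1 and -0.28 on slide 2. The second probe, well above background on 3 of 4 DAPT arrays and on 4 of 4 DMSO arrays, differed by -0.017 (95% interval -0.63 to 0.6). The adjusted p was 1 for both probes (limma), and the conditions overlapped in both.

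NGFR, which encodes p75, the receptor shared by all neurotrophins, stood at 1.66, 1.6, 0.5 and 0.59 on DAPT arrays 1 to 4, and at 1.48, 1.5, 0.063 and 0.39 on DMSO arrays 1 to 4. Arrays of slide 1 were above arrays of slide 2 in both conditions, and the mean of slide 2 was lower by 1.17. On each slide both DAPT arrays were above both DMSO arrays, by 0.14 on slide 1 and 0.32 on slide 2. Over all arrays the log2 difference was 0.23, with an SE of 0.4, a 95% interval of -0.66 to 1.13 and an adjusted p of 1 (limma). With slide as a block the SE was 0.14 and the adjusted p again 1. Without DMSO array 3 the difference over all arrays was -0.032, in a fit without a slide block that left the slides unequally represented in DAPT and DMSO. The DAPT array exceeded the DMSO array of the same number by 0.18, 0.11, 0.44 and 0.2 for numbers 1 to 4.

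RET was well above background on 2 of 4 DAPT arrays and on 2 of 4 DMSO arrays, and stood at -2.78, -4.24, -2.91 and -3.51 with DAPT and at -2.73, -2.89, -3.06 and -3.24 with DMSO. The NTRK2 probe was well above background on 1 of 4 DAPT arrays and on 2 of 4 DMSO arrays, all 3 on slide 1. It stood at -2.54, -2.79, -3.76 and -4.6 with DAPT and at -2.43, -2.54, -4.14 and -3.68 with DMSO. For neither gene could a difference be measured at this signal.

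**Figure D3:**
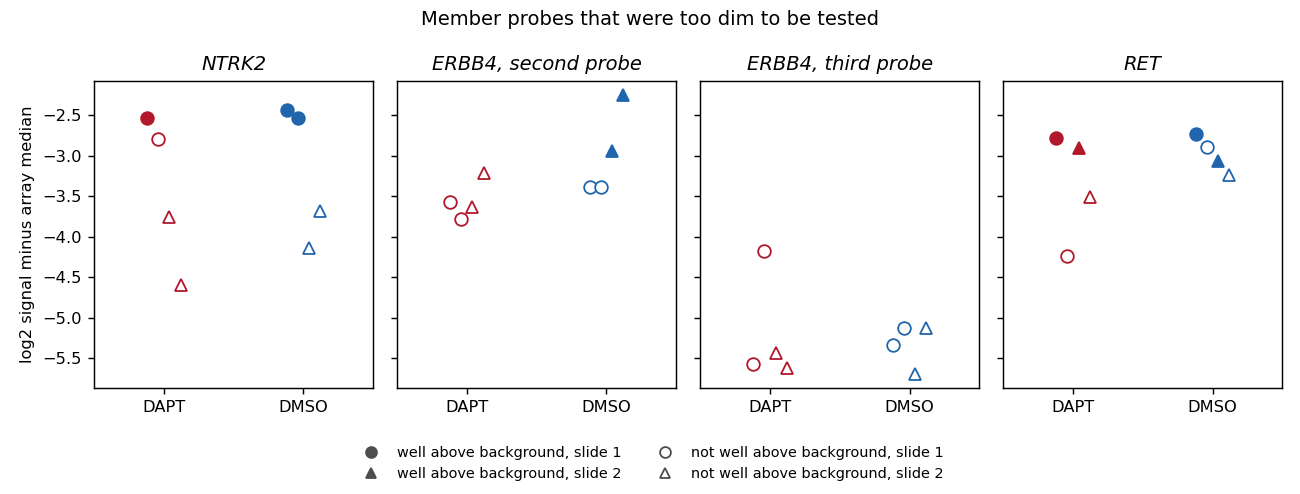
Log2 signal minus the array median (y axis) of the 4 member probes that were not tested, on the DAPT arrays (red) and the DMSO arrays (blue). Filled symbols were well above background and open symbols were not, with circles for slide 1 and triangles for slide 2. The second ERBB4 probe is well above background on 2 DMSO arrays and on 0 DAPT arrays.

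The response of a member could differ between the slides, and this was tested with an interaction term. Of the 7 genes, 0 had an adjusted p under 0.05 for the difference in response, against 0% of all probes, and 0 had an unadjusted p under 0.05, against 2.31% (limma). The estimate was 0.14 for NRG1 (slide 2 minus slide 1) and -0.26 for ERBB4. The largest in size of the 7 genes was that of BDNF, at 0.59.

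The other genes of these pathways were read from 4 lists, 70 of whose 110 genes could be tested. Of the 70 genes, 0 passed the test upwards and 0 downwards, against 0.109% and 0.0362% of all genes. An unadjusted p under 0.05 was found for 2 of them (LRIG1 and DOK6), against 2.56% of all genes (limma). DOK6 entered the test only through DMSO, where it was higher, so its p does not count as a result. The median log2 difference of the 70 genes was 0.0037. This median and those of the lists include genes that entered the test through DMSO alone, such as DOK6. Among genes of the lists with a value on every array, none had DAPT arrays apart from DMSO arrays, so the genes named in the next paragraphs were chosen after their values were seen.

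Of the neurotrophin pathway (receptors, co-receptors and adaptors), 20 of 35 genes were tested, with a median of 0.023. The largest difference was that of LINGO1, which encodes a co-receptor that works with p75, and which stood at 0.39, -0.042, 0.81 and 0.76 with DAPT and at -0.59, 0.023, 0.28 and 0.61 with DMSO. DAPT arrays 1 and 2 lay within the range of the DMSO arrays. The log2 difference was 0.4, with an SE of 0.29 and an adjusted p of 1 (limma). PLCG1, which encodes an enzyme recruited by Trk receptors, was the only gene of the list that was apart upwards within each slide. Its difference was 0.2, and 3.07% of all genes were apart in this way. On slide 1 its arrays nearly met, at 6.41 on DAPT array 1 and 6.4 on DMSO array 2.

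Of the neuregulin and ERBB pathway, 23 of 31 genes were tested, with a median of 0.027. ERBB2, the partner receptor of ERBB3, stood at -0.68, -0.66, -0.7 and -0.67 with DAPT and at -0.44, -0.42, -1.12 and -0.83 with DMSO, with a log2 difference of 0.027. Its DAPT arrays lay between the DMSO arrays of the slides. EGFR, another ERBB receptor, differed by -0.24, with an SE of 0.22, and the ligand NRG2 by 0.26, with an SE of 0.4. NRG2 stood at 2.87, 2.94, 1.64 and 2.24 with DAPT and at 2.77, 2.83, 1.5 and 1.53 with DMSO. On each slide both its DAPT arrays were above both its DMSO arrays, as for 3.07% of all genes. LRIG1, which encodes a negative regulator of ERBB receptors, stood at 0.099, 0.18, 0.14 and 0.66 with DAPT and at 0.64, 0.59, 1.38 and 0.96 with DMSO. Its log2 difference was -0.62, with an SE of 0.23 and an adjusted p of 1 (limma), and its second probe differed by -0.34. DAPT arrays 1, 2 and 3 were below all DMSO arrays. Within each slide both LRIG1 values with DAPT were below both with DMSO, as for 3.33% of all genes.

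Of the GDNF family and RET pathway, 9 of 18 genes were tested, with a median of 0.094. The co-receptors GFRA1 and GFRA2 differed by 0.33 and 0.24, with SEs of 0.29 and 0.25. DOK5 differed by -0.3, with an SE of 0.19. It was lower on both DAPT arrays than on both DMSO arrays of each slide, as were 3.33% of all genes. DOK6, which encodes an adaptor that binds RET, stood at -3.26, -3.9, -2.72 and -3.45 with DAPT and at -3.07, -2.46, -2 and -2.4 with DMSO. It was well above background on 2 of 4 DAPT arrays and on 4 of 4 DMSO arrays, so that it entered the test through DMSO alone and no difference is given for it.

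Genes that respond to receptor tyrosine kinases, or that feed back on them, formed the last list, of which 18 of 26 were tested. The median was -0.15, against -0.011 over all genes, with 12 genes of the list below 0 and 6 above. Both the median and the 12 genes include DUSP5, which entered the test only through DMSO, where it was higher. DUSP5 is 1 gene of the 18. No test was run on the list as a set, so this lean is a description and does not count as a result. SPRY2, ETV4 and JUN were lower on both DAPT arrays than on both DMSO arrays of each slide, as were 3.33% of all genes. For ETV4 and JUN the arrays of slide 1 nearly met. ETV4 stood at 1.5 on DAPT array 1 and 1.51 on DMSO array 1. JUN stood at 4.2 on DAPT array 2 and 4.21 on DMSO array 2. DUSP6 could not be scored in this way, because its brightest probe lacked a value on DAPT array 2 and on DMSO array 1. That probe differed by -0.26, with an SE of 0.38. The 4 tested DUSP6 probes were all lower with DAPT, with log2 differences of -0.9 to -0.26. DUSP5 was well above background on 3 of 4 DAPT arrays and on 4 of 4 DMSO arrays. Having entered the test through DMSO alone, DUSP5 is not counted with SPRY2, ETV4 and JUN. Its DAPT array 4 and DMSO array 3 were equal at -2.17 as rounded. For SPRY2, ETV4 and JUN the log2 differences were -0.36, -0.25 and -0.16, all with an adjusted p of 1 (limma). SPRY2 encodes a feedback inhibitor of the MAP kinase pathway, and ETV4 and JUN encode transcription factors.

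**Figure D4:**
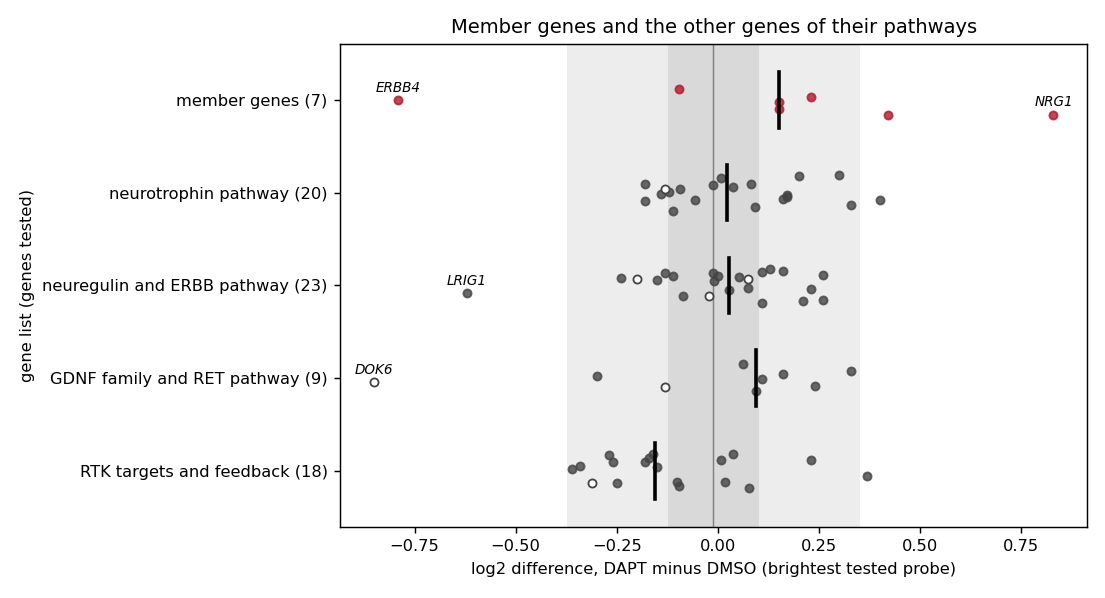
Log2 difference, DAPT minus DMSO (x axis), of each tested gene of the members (red) and of the 4 pathway lists (grey), with the number of genes tested in brackets. Black bars are the medians of the lists, the dark band holds the middle 50% of all tested genes (-0.12 to 0.1), and the light band reaches from the 5th to the 95th percentile (-0.37 to 0.35). NRG1, BDNF, LINGO1 and RASA1 lie above the light band and ERBB4 and LRIG1 below it. Open symbols are genes that were not well above background on all 8 arrays, among them DOK6.

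Cell types that express these genes were read from marker lists. Of 13 neuron markers 9 were tested. Of these, 1 (NEFM, a neurofilament subunit) passed the test upwards and 0 downwards, against 0.109% and 0.0362% of all genes. With array number as a block 4 neuron markers passed upwards (NEFM, NEFL, ELAVL4 and STMN2), against 0.619% of all probes in either direction. With slide as a block 3 of these did, STMN2 being the exception, against 0.451% of all probes in either direction. Outside the neuron list no gene of the 7 marker lists passed without a block, and ISL1 and LMO2 passed with either block, both upwards. The summed level of the 9 markers was 290 to 349 times the array median on the DAPT arrays and 146 to 200 times on the DMSO arrays, with no overlap. NEFL, TUBB3 and NEFM, with means of 6.62, 6.32 and 5.93 with DAPT, weigh most in the sum of that condition. With DMSO their means were 5.02, 6.49 and 3.71, so NEFL and NEFM hold most of the difference in the sum. By their brightest probes the markers did not all move alike, since NEFM and NEFL differed by 2.22 and 1.6 on the log2 scale, against -0.17 for TUBB3, 0.096 for SYT1 and 0.13 for MAPT. Over all tested probes of a gene the differences were 2.02 to 2.22 for NEFM and 0.26 to 1.62 for NEFL. They were -0.17 to 0.23 for TUBB3, 0.096 to 0.21 for SYT1 and -0.2 to 0.13 for MAPT. The sum was higher with DAPT on both slides, as was NRG1, while ERBB4 was lower. The part of the neuron markers in these differences was not tested, and in bulk RNA a change in the number of cells of a type and in RNA per cell cannot be told apart.

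Migratory neural crest and early glia express NGFR and ERBB3. Of 10 markers of these cells 9 were tested. None passed the test in either direction, against 0.145% of all genes, and 0 had an unadjusted p under 0.05, against 2.56% (limma). Their median log2 difference was 0.12, and their summed level was 132 to 208 with DAPT and 144 to 223 with DMSO. FABP7, whose probe was the brightest of them (mean 6.17 with DAPT and 6.15 with DMSO), weighs most in that sum. Trk receptors and RET are known to be expressed later in cranial placodes and sensory ganglia. Of 12 markers of these 7 were tested and 0 passed without a block, against 0.145% of all genes. Their summed level was 96.6 to 137 with DAPT and 90.7 to 139 with DMSO. DLX5, whose probe was the brightest of them (mean 5.78 with DAPT and 5.82 with DMSO), weighs most in that sum. ISL1, which encodes a transcription factor, was the only marker on that list with an unadjusted p under 0.05. Its log2 difference was 1.45, with an adjusted p of 0.153 (limma), which was 0.00663 with slide and 0.00174 with array number as a block. NEUROD1, on the same list, differed by -0.3, with an SE of 0.7. Neither summed level parted the conditions.

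**Figure D5:**
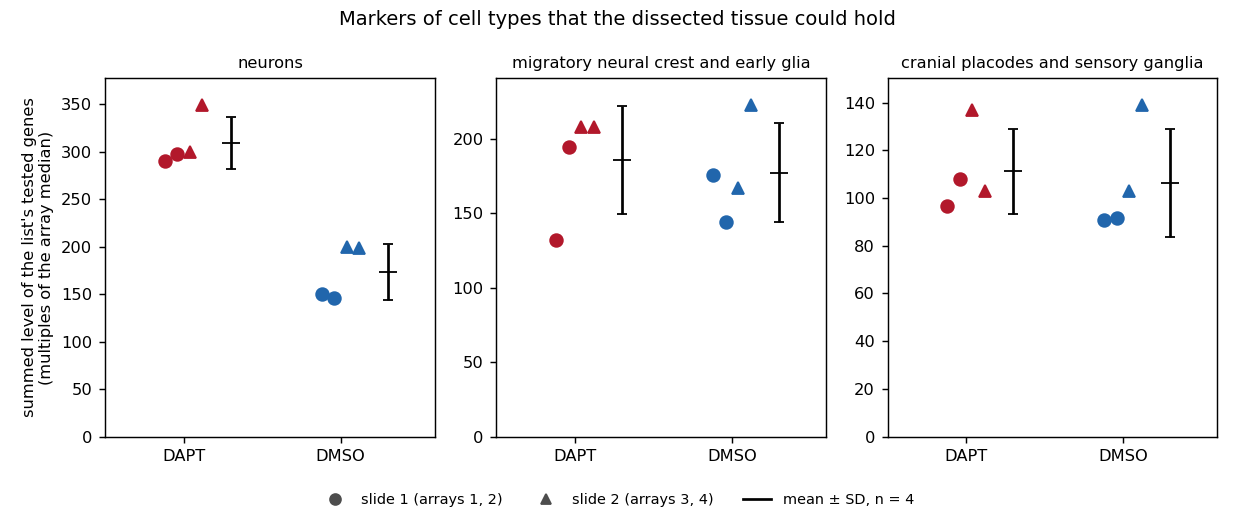
Summed level of the tested genes of 3 marker lists, in multiples of the array median (y axis, from 0), on the DAPT arrays (red) and the DMSO arrays (blue). Circles are arrays on slide 1, triangles arrays on slide 2, and black bars the mean ± SD. The neuron markers sum to 290 to 349 with DAPT and to 146 to 200 with DMSO, and the other lists overlap. NEFL and NEFM hold most of the difference in the neuron sum.

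For each member the 3 named genes that varied most like it were taken, by Pearson correlation over the 8 arrays after the mean of each slide was subtracted, among 9732 genes. As the highest of so many over so few arrays, these correlations are a description of these arrays. The difference between DAPT and DMSO was not removed, so a difference that a member and another gene share is part of r. NRG1 was most like TRIM7.2, STMN2 and OVOA (r = 0.989, 0.984 and 0.982), with log2 differences of 0.19, 1.32 and 0.19. Of these, STMN2 is on the list of neuron markers. ERBB4 was most like PHACTR1, CKMT1B and GLT1D1 (r = 0.97 each), with log2 differences of -1, -0.57 and -0.54. The genes most like NGFR were NR5A1, TSPAN10 and HIST1H2AH, with r of 0.987, 0.976 and 0.975. For ERBB3 they were GPAT2, HSPA5 and KRT79, with r of 0.959, 0.947 and 0.929. BDNF had LAMA3, RPS21 and TMEM196 (r = 0.992, 0.989 and 0.983), NTF3 had ANXA6, SLC2A8 and PXYLP1 (r = 0.972, 0.969 and 0.962), and NTRK3 had RGS3, COX18 and SLC29A1 (r = 0.97, 0.951 and 0.95).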

How the data were processed

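Agilent chicken arrays of 1 colour were used, 4 with DAPT and 4 with DMSO. The authors extracted signals with Agilent Feature Extraction 10.7.1.1 and deposited, per array, each spot's intensity after background correction, without normalization between arrays. Their deposited report of all probes, made in GeneSpring, gives mean intensity and mean log2 signal per condition after a 50th percentile shift, and their own fold change as a ratio, as a signed score and as a log2 value. These comparison columns were not used. A deposited list of genes past a fold change was not used either. Every column of samples was accounted for, with 0 left unused.

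Deposited intensities were taken to log2, spots marked as outliers were left out, spots of a probe were averaged and each array's 50th percentile was subtracted. No depth exists for arrays, and their number limits the precision. Conditions were compared with limma 3.58.1 in R 4.3.3, two-sided, with Benjamini-Hochberg adjustment over 31504 probes, at an adjusted p under 0.05. Figures were drawn in Python with matplotlib. The fit was also run on simulated data that held no slide differences, so that run does not show how the fit handles slides. A gene was represented by its brightest tested probe, and a probe without a symbol was counted under its accession. The methods describe 4 sets of experiments, and each array was taken as 1 of them.

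DAPT and DMSO arrays of the same number deviated together from their condition means, with correlations across probes of 0.679, 0.569, 0.767 and 0.505. The main fit held no block and did not pair them. Differently numbered arrays that shared a slide gave 0.419 to 0.675, and with the slide mean removed the same-numbered arrays gave 0.0489 on slide 1 and 0.356 on slide 2, so number and slide are hard to separate here. The numbers and slides came from the deposited array names. Array number and slide were blocks in alternative fits. Other alternatives were other centring, background correction, filters, floor and array weights, single slides and leaving out each array.

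Members and gene lists were chosen with earlier results of these data known. By rule the 9 members, pathway genes past the test or with conditions apart (none were) and the 3 genes most like each member were named, and all pathway genes named were chosen after their values were seen. In the pathway lists 1 symbol shared its locus with another and was counted with it. Some genes of these pathways are not reported here. Gene symbols came from the deposited report and from RefSeq. No positions are given, because the builds differ.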

Additional observations from a re-analysis of the deposited data

Results flagged for a closer look

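The second BDNF probe had a DAPT array far from the others of its condition. DAPT array 3 stood at -0.43, against -1.04, -1.09 and -1.16 on the other DAPT arrays, and its gap to the nearest of them was 0.83 of the whole range, above Dixon's critical value. The DMSO arrays of this probe stood between -1.27 and -0.79. Of the 18 groups of 4 arrays examined for the tested member probes this was the only one past that value, and chance flags about 1 group in 20. On the brighter BDNF probe the same array was also the highest.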

How the results depend on the processing

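The member genes were refitted under 20 or 21 alternatives each. NRG1 kept its direction in all of them, at 0.58 to 1.06, as did ERBB4, at -0.97 to -0.51, and BDNF, at 0.13 to 0.72. With array number as a replicate block 1 member gene passed the test (NRG1, adjusted p = 0.0488 in limma) and 195 probes did, against 0 and 45 without it, and the block changed the call of no other member. The lowest adjusted p over the alternatives was 0.119 for ERBB4 and at least 0.173 for the other members. The count of 45 probes (33 higher, 12 lower) became 142 with slide as a block, 93 with array weights, 17 with normexp background correction (3 higher, 14 lower), and 13 without a filter on dim probes. It was 11 to 32 when an array was left out, lowest without DAPT array 2 or 4.

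Directions turned for NGFR, at -0.038 with normexp and -0.26 with array weights, and for ERBB3, at -0.48 with normexp, which moved the median of all probes to -0.32. NTRK3 turned to 0.0095 with array weights and 0.086 on slide 1 alone. Leaving out an array gave -0.03 to 0.3 for NTF3, -0.2 to 0.058 for NTRK3 and -0.032 to 0.45 for NGFR, and NTF3 also turned to -0.0076 without DMSO array 2, and NTRK3 to 0.003 without DAPT array 2. Fits that left out an array held no slide block, so the slides were then unequally represented in DAPT and DMSO. The cause of these turns was not tested. Normexp was planned on mean signals and run on median signals, a choice made after seeing the files. Pathway genes and differences between slides stayed at 0 called under every alternative run for them. Signal near background limits what can be said of RET, NTRK2 and the dimmer ERBB4 probes.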
